A study of Mus musculus with 11 samples.

Results

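The small nuclear and small nucleolar RNAs were examined as 59 genes of the 19937 with a single gene symbol on the array. They were picked by name, as genes whose symbol starts with Snord, Snora, Scarna or Rnu followed by a digit. No measured value entered that naming rule, but the set was chosen with earlier results of these data known. By name they fell into 32 box C/D RNAs (Snord and Rnu3a), 20 H/ACA RNAs (Snora), 3 Cajal body RNAs (Scarna) and 4 other Rnu genes, namely Rnu5g, Rnu6, Rnu7 and Rnu12. All 59 matched a RefSeq gene (GRCm38.p6) by identifier, and their annotated lengths ran from 45 to 275 bases.

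RNA of splenic T cells was hybridised to 11 Affymetrix Mouse Gene 1.0 ST arrays. Of these, 8 held leukemias of Lckpr-TCL1A+/- mice, in which the proximal Lck promoter drives the human oncogene TCL1A in T cells from the thymus onward, and the cells had been enriched on magnetic beads for CD8. The chronic phase (3 arrays, average age 12 months) was defined by 30 to 70% tumor cells in blood and spleen. The exponential phase (5 arrays, average age 15 months) was defined by a mean lymphocyte doubling time in blood of 12 days (SEM 0.8), with over 80% tumor cells in blood and over 90% in spleen. The 3 control arrays held CD3+ pan-T cells pooled from 9 age-matched wild-type C57BL/6 spleens. No group had received a treatment. Genotype and bead selection changed together between leukemias and controls and cannot be told apart, and the phases also differed in age. Every level below is a log2 RMA value, and every difference is a difference of log2 values, so that 1 unit is a doubling.

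Small nucleolar RNAs act as guides in the nucleolus. Box C/D RNAs bind fibrillarin and direct ribose methylation of ribosomal RNA, H/ACA RNAs bind dyskerin and direct the conversion of uridine to pseudouridine, and Cajal body RNAs guide the same modifications on spliceosomal RNAs. A few, among them U3, U8, U14, U22, U17 and E2, are instead known for the cleavage of the ribosomal RNA precursor. Most are cut out of introns of host genes, many of which encode ribosomal proteins or other parts of the translation machinery. A probe inside such an RNA also lies in the intron of the unspliced host transcript, so mature and intron-borne RNA cannot be told apart here.

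Before the small RNAs, the labels and the described bead enrichment were set against cell type markers. Exponential replicate 4 went against the CD8 enrichment given in the study's methods. The summed level of Cd8a and Cd8b1 was 4.80 in this array, whereas the remaining exponential arrays ran from 9.29 to 9.76. Its summed CD4 list stood at 5.59, as high as in wild type (5.21 to 5.59). The summed level of 10 myeloid markers ran from 7.79 to 7.93 in the exponential phase, above wild type (6.46 to 6.98) and chronic phase (5.92 to 6.81). By the limma rule given below, 2 of the 10, Lyz2 and Plbd1, were called higher in the exponential phase than in wild type. Of all genes 0.135% were called higher. In the same comparison 1 of 9 erythroid markers was called lower, and in the chronic phase both markers of the CD4 list were. Of all genes 0.416% were called in the exponential and 0.456% in the chronic phase. The summed erythroid level was lower in the exponential phase (6.62 to 7.85) than in wild type (8.95 to 10.1), and chronic replicate 1, at 7.13, lay with the exponential arrays while the other chronic arrays were at 8.44 and 9.95. The summed level of plasma cell markers likewise stood at 6.93 in chronic replicate 1 against 9.59 and 10.3 in the other chronic arrays, and ran from 6.72 to 8.30 in the exponential phase and from 9.33 to 11.2 in wild type. The summed neutrophil level ran from 6.19 to 7.41 in exponential replicates 1, 2, 3 and 5 and reached 9.64 in exponential replicate 4. All these levels exceeded wild type (5.12 to 5.47) and chronic phase (5.08 to 5.56). Exponential replicate 4 also had the highest summed level of dividing cell markers, 10.5. For these markers exponential replicates 1, 2, 3 and 5 ran from 7.54 to 8.36, and wild type from 7.59 to 8.35. Chronic replicates 1, 2 and 3 stood at 7.86, 8.94 and 9.56. The summed B cell level ran from 5.82 to 7.37 in wild type and was 8.36, 6.13, 8.04, 6.71 and 7.39 in exponential replicates 1 to 5. Exponential replicate 1 was thus the highest of the 11 arrays, while exponential replicates 2 and 4 lay within the wild-type range. Chronic replicate 1 stood at 7.41 and chronic replicate 3 at 6.52, and chronic replicate 2 lay below all wild-type arrays. No B cell marker was called in either phase against wild type. The part of these cell types in the results below was not tested. As in any bulk sample, a changed share of a cell type and a changed amount of RNA per cell cannot be told apart.

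Small nucleolar RNAs were higher in leukemias of the exponential phase than in wild-type T cells, and the H/ACA class had the larger median difference. Called genes were those with an adjusted p under 0.05 and a fold of at least 1.5 in limma. By this rule 8 of the 59 rose and none fell, whereas 0.416% of all 19937 genes were called and 0.135% were called higher. The 8 were the box C/D RNAs Rnu3a, Snord42a, Snord16a and Snord15a, the H/ACA RNAs Snora62, Snora74a and Snora73a, and the Cajal body RNA Scarna13. An unadjusted p under 0.05 was reached by 34, of which 33 were higher and 1, Snora31, was lower. In 28 of the 59 every exponential array lay above every wild-type array, 13 of 32 in box C/D and 14 of 20 in H/ACA, compared with 3.28% of all genes. Across the 59 the median difference was 0.63, with 49 above 0, while the median over all genes was 0.01 with 51.7% above 0. The median was 0.49 in box C/D and 1.02 in H/ACA. Without exponential replicate 4 the calls were 11, which held all 8, but 1.11% of all genes were then called, compared with 0.416%. The class medians of that fit were 0.52 and 1.05. The calls fell to 0 without wild-type replicate 1, to 1 without wild-type replicate 2 or 3 or exponential replicate 2, to 2 without exponential replicate 5 and to 4 without exponential replicate 1. They were also 0 in 1 fit over all groups, by the methods' t-test and with all probe sets tested.

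**Figure D1:**
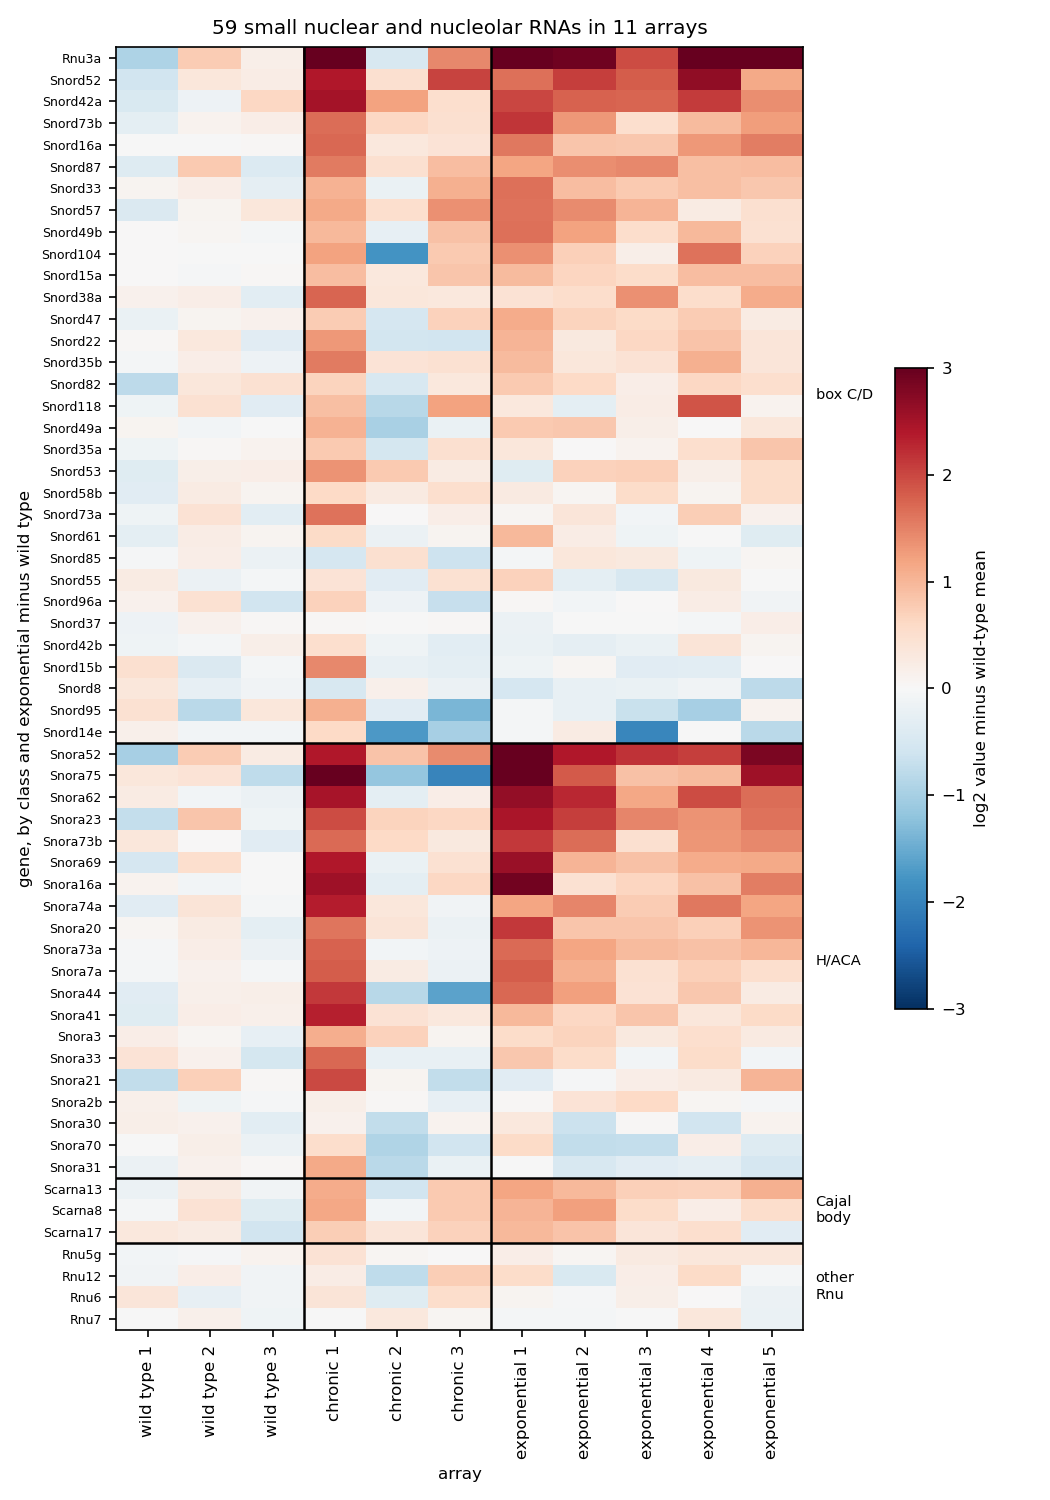
Each row is 1 of the 59 small RNAs, ordered by class and by exponential minus wild type, and each column is 1 of the 11 arrays; color gives the log2 value minus the mean of the 3 wild-type arrays, with red above and blue below, and the scale ends at 3 in both directions. Chronic replicate 1 and exponential replicate 1 are red over most box C/D and H/ACA rows, whereas chronic replicates 2 and 3 are mixed.

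The chronic phase gave no call, and the H/ACA difference rested on 1 array. None of the 59 was called against wild type in limma, where 0.456% of all genes were called, and the methods' t-test likewise called none after adjustment. An unadjusted p under 0.05 was reached by 15 in limma, all higher, and the smallest adjusted p was 0.180 (Snord15a). By the methods' t-test 2 of the 59 reached an unadjusted p under 0.05. With 1 array left out the limma count ran from 7, without wild-type replicate 1, to 28, without chronic replicate 2. The chronic arrays lay wholly above the wild-type arrays in 12 of the 59, compared with 8.28% of all genes, and 9 of the 12 were box C/D RNAs. The median difference was 0.37 in box C/D and 0.61 in H/ACA, against a median over all genes of -0.002. Without chronic replicate 1 these medians were 0.10 and -0.0022, and without chronic replicate 2 they were 0.76 and 0.81.

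Array by array, the shift was uneven. Chronic replicate 1 lay above all 3 wild-type arrays in 54 of the 59 (91.5%, compared with 27.8% of all genes), chronic replicate 2 in 19 (32.2%, compared with 24.9%) and chronic replicate 3 in 26 (44.1%, compared with 31.96%). In chronic replicate 3 these were 18 of 32 box C/D RNAs but 3 of 20 H/ACA RNAs. The 5 exponential arrays lay above all wild-type arrays in 38 to 43 of the 59 (64.4 to 72.9%, compared with 24.6 to 29.7% of all genes). The median box C/D deviation from the wild-type mean was 1.04, -0.14 and 0.44 in chronic replicates 1, 2 and 3, and 0.78, 0.44, 0.36, 0.58 and 0.41 in exponential replicates 1 to 5. The corresponding H/ACA medians were 1.89, -0.03 and -0.13 in the chronic phase, and 1.71, 0.92, 0.63, 0.77 and 1.01 in the exponential phase. All exponential arrays were thus positive in both classes, with H/ACA the higher of the pair in each, while of the chronic arrays only replicate 1 was positive in H/ACA. Of the 59, 26 had their highest value in chronic replicate 1 and 21 in exponential replicate 1, arrays that held the highest value of 8.96% and 11.8% of all genes. The chronic replicate 1 value exceeded both other chronic arrays in all 20 H/ACA RNAs and in 26 of 32 box C/D RNAs, compared with 32.4% of all genes.

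**Figure D2:**
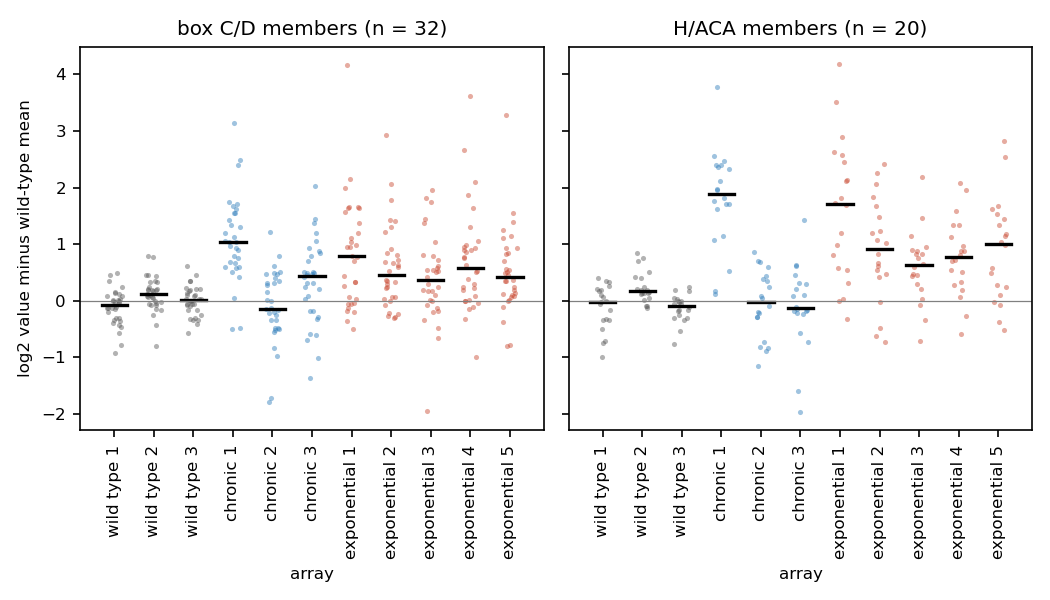
Points are single small RNAs, shown as log2 value minus the wild-type mean (vertical axis) in each of 11 arrays (horizontal axis), with the box C/D class on the left and the H/ACA class on the right; black bars are class medians. The H/ACA bar stands at 1.89 in chronic replicate 1 and near 0 in the other chronic arrays, and between 0.63 and 1.71 in the exponential arrays.

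Within an array, the median box C/D level minus the median H/ACA level was 0.14 ± 0.26 (SD, n = 3) in wild type. In chronic leukemias this gap was 0.59 ± 0.24 (SD, n = 3), and in exponential leukemias it was -0.02 ± 0.31 (SD, n = 5). Levels of different probe sets are not on a common scale, so only the change between arrays can be read. The chronic values of 0.33 to 0.78 and the exponential values of -0.55 to 0.20 did not overlap, and the wild-type values of -0.15 to 0.36 overlapped both. With class means in place of medians the gap was 0.55 in wild type, 0.44 in the chronic phase and 0.20 in the exponential phase, so that the order of wild type and chronic phase turned. As the classes were compared with earlier results known, this was not tested.

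No small RNA differed between the phases by the test of that difference. None of the 59 was called between exponential and chronic arrays, nor was any of all genes (0%). The methods' t-test after adjustment also called none of the 59, and an unadjusted p under 0.05 was reached by Rnu3a and Snora52. In none did the 5 exponential arrays all lie above the 3 chronic arrays, which was so in 2.3% of all genes. The median difference was 0.11 in box C/D and 0.35 in H/ACA. Without chronic replicate 1 it was 0.45 in box C/D and 1.02 in H/ACA, and without chronic replicate 2 the box C/D median turned to -0.083. Of the 59, 38 were above 0, and 51 without chronic replicate 1 but 22 without chronic replicate 2. In limma 20 reached an unadjusted p under 0.05 without chronic replicate 1 and 3 without chronic replicate 2, with no call in either fit.

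With both phases pooled, 1 of the 59 rose, Snord15a, compared with 0.722% of all genes called and 0.281% called higher. The 8 leukemia arrays lay above all wild-type arrays in 8 of the 59 (Snora41, Snora52, Snord15a, Snord16a, Snord35b, Snord38a, Snord52 and Snord73b), compared with 1.67% of all genes. This comparison and both single-phase comparisons used the same 3 wild-type arrays, so their results are not independent.

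**Figure D3:**
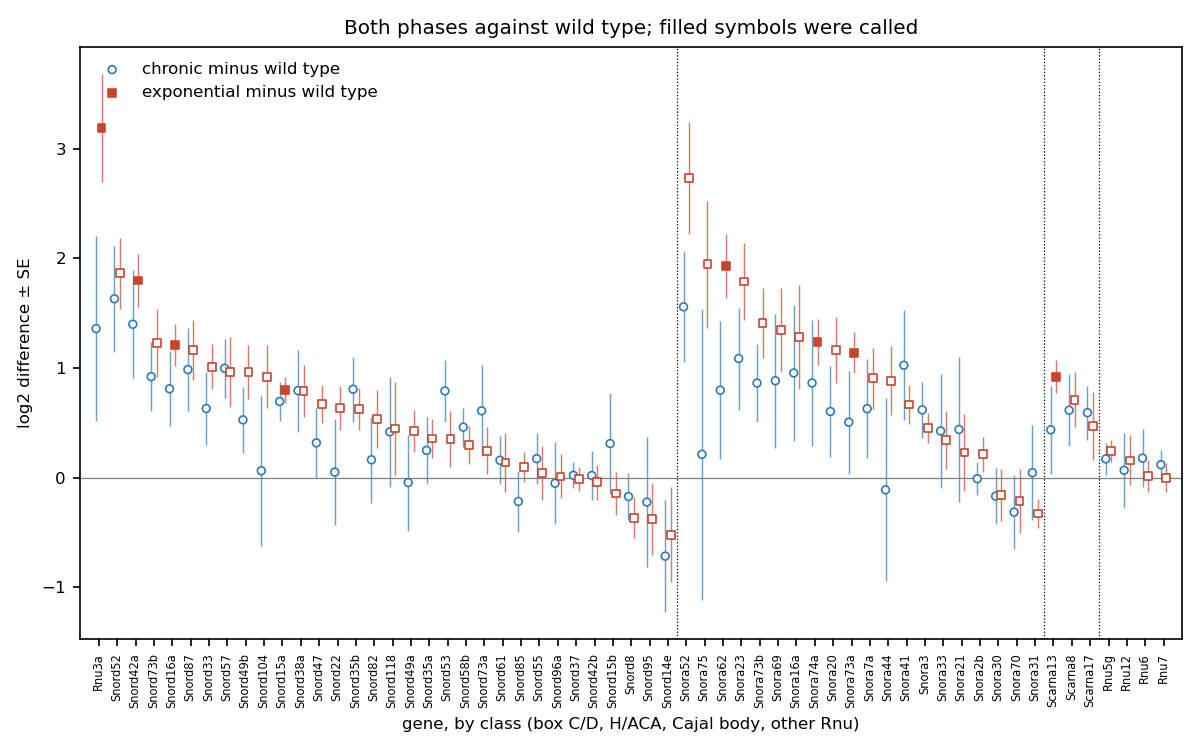
The log2 difference from wild type with its standard error (vertical axis) is shown for all 59 small RNAs (horizontal axis, by class), with circles for the chronic phase and squares for the exponential phase; filled symbols were called in limma. The 8 filled symbols are all exponential, and the chronic bars are mostly the longer.

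Among the RNAs known for precursor cleavage, 7 were measured and Rnu3a, the U3 RNA, had the largest exponential difference of all 59. U3 is needed for the early cuts that release the small subunit RNA. Its level was 4.07, 5.76 and 5.16 in wild type, 8.13, 4.51 and 6.43 in the chronic phase, and 9.17, 7.92, 6.96, 8.61 and 8.27 in the exponential phase. All exponential arrays were above all wild-type arrays, while 1 chronic array lay within the wild-type range and the other two above it. The exponential difference was 3.19 (SE 0.49, adjusted p = 0.0357 in limma), a 9.12-fold rise, and the chronic difference was 1.36 (SE 0.84, adjusted p = 0.657).

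Snora62, the E2 RNA, had wild-type levels of 3.70, 3.36 and 3.28. The chronic levels were 5.92, 3.16 and 3.65 and the exponential levels 6.07, 5.70, 4.59, 5.40 and 5.12. Chronic replicate 1 was as high as the exponential arrays and the other chronic arrays were at the wild-type level. The exponential difference was 1.93 (SE 0.29, adjusted p = 0.0329 in limma).

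U17 is encoded by a pair of genes, Snora73a and Snora73b, both within the host gene Snhg3. Snora73a stood at 3.04, 3.28 and 2.90 in wild type, 4.83, 2.98 and 2.93 in the chronic phase, and 4.76, 4.27, 4.02, 3.95 and 4.06 in the exponential phase, a rise of 1.14 (SE 0.19, adjusted p = 0.0403 in limma). The exponential and wild-type arrays did not overlap, and of the chronic arrays replicate 1 lay above the wild-type range and the others within it. Snora73b stood at 4.63, 4.31 and 3.95 in wild type, 6.00, 4.89 and 4.59 in the chronic phase, and 6.42, 5.97, 4.77, 5.63 and 5.73 in the exponential phase, with a difference of 1.41 (SE 0.32) that was not called (adjusted p = 0.122). Both genes share a host and a similar sequence, so their probe sets are not independent.

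The other precursor-cleavage RNAs were not called. Snord118, the U8 RNA of large subunit maturation, stood at 3.26, 3.84 and 3.04 in wild type, 4.28, 2.54 and 4.58 in the chronic phase, and 3.71, 3.08, 3.61, 5.26 and 3.49 in the exponential phase. The groups overlapped, and exponential replicate 4 was far above the others. Snord22, the U22 RNA of small subunit processing, ran from 7.41 to 8.09 in wild type, from 7.18 to 9.06 in the chronic and from 8.06 to 8.79 in the exponential phase (difference 0.64, SE 0.20, adjusted p = 0.293). Snord14e, a U14 gene, had the lowest of the 59 exponential differences, at -0.52 (SE 0.43, adjusted p = 0.791), with levels of 7.79 to 8.03 in wild type, 6.15 to 8.46 in the chronic and 5.92 to 8.11 in the exponential phase.

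Of the box C/D guides, Snord42a, an RNA from an intron of Rpl23a, rose most after Rnu3a among the called ones. Its levels were 2.73, 3.04 and 3.81 in wild type, 5.69, 4.40 and 3.69 in the chronic phase, and 5.19, 4.97, 4.93, 5.29 and 4.58 in the exponential phase. The exponential arrays all exceeded wild type, and 1 chronic array, replicate 3, fell within the wild-type range. The exponential difference was 1.80 (SE 0.24, adjusted p = 0.0183 in limma), the smallest adjusted p of the 59.

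Snord16a, from an intron of Rpl4, stood at 4.32, 4.30 and 4.35 in wild type, 6.04, 4.63 and 4.74 in the chronic phase, and 5.90, 5.16, 5.13, 5.62 and 5.87 in the exponential phase. All leukemia arrays were above all wild-type arrays. The exponential difference was 1.21 (SE 0.19, adjusted p = 0.0394 in limma). Snord15a, from an intron of Rps3, stood at 2.06, 2.01 and 2.09 in wild type, 2.99, 2.36 and 2.89 in the chronic phase, and 3.00, 2.69, 2.60, 2.99 and 2.98 in the exponential phase. Again no leukemia array overlapped wild type, although the wild-type levels lay under the median of all probe sets, 2.30. The difference was 0.80 (SE 0.12, adjusted p = 0.0329) in the exponential phase, 0.70 (SE 0.18, adjusted p = 0.180) in the chronic phase and 0.76 (SE 0.14, adjusted p = 0.0256) over all leukemias.

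A pair of further box C/D RNAs had large differences without a call. Snord52 stood at 3.34, 4.25 and 4.14 in wild type, 6.31, 4.38 and 5.94 in the chronic phase, and 5.55, 5.98, 5.72, 6.57 and 5.05 in the exponential phase, so that all leukemia arrays were above wild type. The exponential difference was 1.86 (SE 0.32) with an adjusted p of 0.0502. Snord73b ran from 4.82 to 5.33 in wild type, from 5.60 to 6.79 in the chronic and from 5.62 to 7.26 in the exponential phase, with an exponential difference of 1.23 (SE 0.31, adjusted p = 0.168).

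The box C/D RNAs with the highest mean levels were Snord57, Snord49b and Snord47, and none of them was called. Snord57 ran from 8.56 to 9.34 in wild type and from 9.23 to 10.6 in the exponential phase, which overlapped. Its chronic levels of 9.49 to 10.4 all lay above wild type, with a difference of 1.00 (SE 0.27, adjusted p = 0.206). Snord49b ran from 9.06 to 9.19 in wild type and from 9.58 to 10.8 in the exponential phase, and Snord47 from 7.72 to 8.04 and from 8.16 to 9.02. Neither of the latter overlapped between these groups, and their exponential differences were 0.96 (SE 0.25, adjusted p = 0.179) and 0.67 (SE 0.18, adjusted p = 0.188).

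Of the H/ACA guides, Snora74a, an RNA of the host Snhg4, was the remaining call. It stood at 2.22, 2.94 and 2.48 in wild type, 4.91, 2.89 and 2.44 in the chronic phase, and 3.74, 4.02, 3.30, 4.14 and 3.73 in the exponential phase. All exponential arrays were above wild type, and of the chronic arrays only replicate 1 was. The exponential difference was 1.24 (SE 0.21, adjusted p = 0.0492 in limma).

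Snora52, Snora75 and Snora23 had larger differences than Snora74a but wider spread. Snora52, from an intron of Rplp2, stood at 3.12, 4.87 and 4.35 in wild type, 6.52, 4.97 and 5.53 in the chronic phase, and 8.29, 6.53, 6.29, 6.19 and 6.93 in the exponential phase. Every leukemia array exceeded every wild-type array, chronic replicate 2 only narrowly, and the exponential difference was 2.73 (SE 0.51, adjusted p = 0.0670). Snora75, from an intron of the nucleolin gene Ncl, had the widest chronic range: 7.04, 7.11 and 5.94 in wild type, 10.5, 5.55 and 4.72 in the chronic phase, and 10.2, 8.53, 7.59, 7.66 and 9.24 in the exponential phase. Chronic replicate 1 was the highest of the 11 arrays and chronic replicates 2 and 3 were the lowest. Its difference was 1.95 (SE 0.58, adjusted p = 0.248) in the exponential and 0.21 (SE 1.33, adjusted p = 0.980) in the chronic phase. Snora23, from an intron of Ipo7, ran from 3.98 to 5.54 in wild type, from 5.33 to 6.66 in the chronic and from 6.05 to 7.15 in the exponential phase, with an exponential difference of 1.79 (SE 0.35, adjusted p = 0.0782). Snora52 and Snora23, like Snord52, were called without exponential replicate 4, a fit in which 1.11% of all genes were called.

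**Figure D4:**
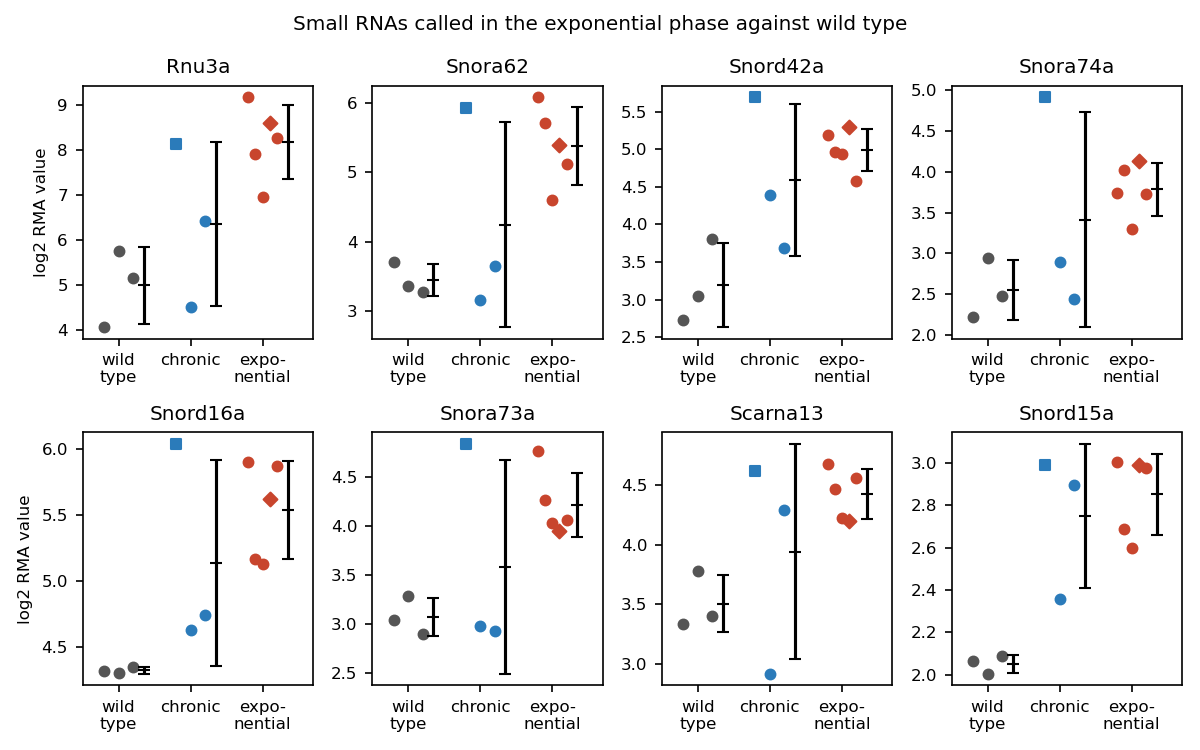
Log2 RMA values (vertical axes) of the 8 small RNAs called in the exponential phase, by group (3 wild-type, 3 chronic and 5 exponential arrays), with the mean and SD as bars beside the points; the square is chronic replicate 1 and the diamond exponential replicate 4. In each panel the exponential points lie above the wild-type points, and the square lies above the exponential range in 4 panels (Snord42a, Snora74a, Snord16a and Snora73a) and within it in the other 4.

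Of the 3 Cajal body RNAs, whose median exponential difference was 0.71, 1 was called. Scarna13, an RNA of the host Snhg10, stood at 3.34, 3.78 and 3.40 in wild type, 4.62, 2.92 and 4.29 in the chronic phase, and 4.68, 4.47, 4.23, 4.20 and 4.56 in the exponential phase. The exponential arrays were all above wild type and the chronic arrays lay on both sides. Its exponential difference was 0.92 (SE 0.15, adjusted p = 0.0403 in limma). Scarna8 and Scarna17 had exponential differences of 0.71 (SE 0.25, adjusted p = 0.359) and 0.47 (SE 0.31, adjusted p = 0.706).

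The remaining Rnu genes were flat or dim. Rnu5g, Rnu6 and Rnu7, which encode a U5 and a U6 spliceosomal RNA and the U7 RNA of histone mRNA ends, had levels from 1.03 to 1.94 over the 11 arrays, below the median of all probe sets in each. At this signal no difference could be read. Rnu12, the U12 RNA of the minor spliceosome, ran from 3.68 to 4.00 in wild type and from 3.33 to 4.36 in the exponential phase, with a difference of 0.16 (SE 0.23, adjusted p = 0.894).

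The calls depended on single arrays. With each of the 8 arrays of the exponential comparison left out in turn, Snord42a was called in 4 of 8 fits, Snora62 and Snord16a in 3, Rnu3a, Snora73a, Snora74a and Snord15a in 2, and Scarna13 in 1. None of the 8 was called without wild-type replicate 1 or 2, and Snord42a alone without wild-type replicate 3. Of the 8, 3 were called without exponential replicate 1, 1 without exponential replicate 2, 5 without exponential replicate 3 and 1 without exponential replicate 5. Their differences stayed above 0 but moved with the array left out, for example between 2.73 and 3.57 for Rnu3a and between 1.57 and 2.11 for Snord42a. Snord15a over all leukemias was called in 7 of 11 such fits and was lost without chronic replicate 1 or any of the wild-type arrays. The number above 0 in the exponential phase was 47 to 51 of 59 in all of these fits.

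Host genes were next set beside the RNAs they carry. By RefSeq (GRCm38.p6), 54 of the 59 lie within another annotated gene, with 47 such hosts: 34 are protein coding and 13 are long non-coding RNAs, and 16 ribosomal protein genes hold 21 of the small RNAs. The table gives no strand, so a gene on the opposite strand may be counted as a host. Rnu3a, Snord118, Rnu12, Rnu6 and Rnu7 lay in none. Of the hosts, 26 were measured by a probe set of their own, which gave 30 pairs.

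Hosts moved less than their small RNAs. In the exponential phase the median host difference was 0.22, against 0.50 for the small RNAs of the same pairs, and the small RNA had the larger difference in 20 of 30 pairs. No host was called in either single phase or between the phases, the smallest adjusted p in the exponential phase being 0.117. Over all leukemias, where 0.722% of all genes were called, 1 host rose, Ipo7, by 0.84 (SE 0.17, adjusted p = 0.0478 in limma). Ipo7, a nuclear import receptor that carries ribosomal proteins, stood at 5.67, 6.55 and 6.60 in wild type, 7.25, 7.21 and 7.05 in the chronic and 6.81, 7.19, 7.26, 7.11 and 7.04 in the exponential phase. Across the 30 pairs, host and small RNA differences of the exponential phase had a Spearman rho of 0.28, a description only, since pairs share arrays and several share a host.

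Small RNAs of 1 host diverged from each other. In the ribosomal protein gene Rpl23a (host difference 0.12), Snord42a differed by 1.80 and Snord42b by -0.04 in the exponential phase. In Rps3 (0.44), Snord15a differed by 0.80 and Snord15b by -0.14. In Ncl (0.34), the H/ACA RNA Snora75 differed by 1.95 and the box C/D RNA Snord82 by 0.54, and in Rps3a1 (0.07) Snord73b differed by 1.23 and Snord73a by 0.25. Snord14e and its host Hspa8, a chaperone gene, had opposite signs, at -0.52 and 0.57. Of the RNAs with the smaller difference, Snord42b ran from 1.68 to 2.51 over all arrays, close to the median of all probe sets. The others were brighter, with mean levels of 3.78 for Snord15b, 7.91 for Snord82 and 4.78 for Snord73a. Whether level plays a part in the divergence was not tested.

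**Figure D5:**
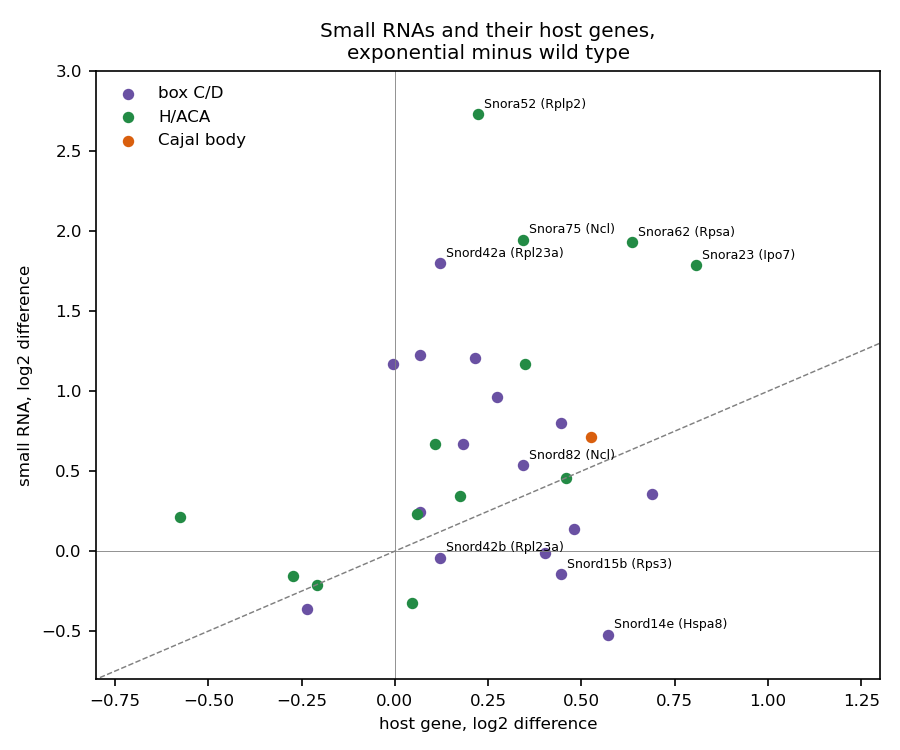
Each point is 1 of 30 pairs, with the exponential minus wild-type log2 difference of the host gene on the horizontal axis and of the small RNA on the vertical axis; colors give the class and the dashed line marks equal differences. In 20 of 30 pairs the point lies above the line, and Snora52, Snora62, Snora75 and Snord42a lie farthest above it.

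Many hosts are known for transcripts that begin with a run of pyrimidines. The 60 bases around the annotated start are shown for hosts, found in the RefSeq table, of called RNAs and of Snora52 and Snora75. No window is shown for Snhg4, Rpl23a and Ipo7, the hosts of Snora74a, Snord42a and Snora23. Each is read 5′ to 3′ on the gene's strand (GRCm38.p6), with 30 bases before and 30 from the start. Capitals mark a C followed by at least 4 bases that are C or T, within 10 bases on either side of the start.
Rpsa, host of Snora62, chr9:120127736-120127795, plus strand: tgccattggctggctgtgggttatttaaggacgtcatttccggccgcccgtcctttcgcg
Rplp2, host of Snora52, chr7:141447621-141447680, plus strand: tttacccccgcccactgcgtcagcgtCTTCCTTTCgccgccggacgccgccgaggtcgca
Ncl, host of Snora75, chr1:86359426-86359485, minus strand: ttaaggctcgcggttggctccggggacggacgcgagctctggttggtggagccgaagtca
Snhg3, host of Snora73a and Snora73b, chr4:132353657-132353716, minus strand: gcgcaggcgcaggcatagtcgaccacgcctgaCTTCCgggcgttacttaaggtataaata
Snhg10, host of Scarna13, chr12:105032250-105032309, minus strand: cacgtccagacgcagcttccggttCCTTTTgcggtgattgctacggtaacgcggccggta
Rps3, host of Snord15a, chr7:99483680-99483739, minus strand: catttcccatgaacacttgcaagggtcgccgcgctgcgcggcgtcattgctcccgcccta
Rpl4, host of Snord16a, chr9:64173357-64173416, plus strand: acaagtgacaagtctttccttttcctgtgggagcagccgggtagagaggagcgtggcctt
Within 10 bases of the start such a run was found in 3 of the windows shown. It was found in 15 of the 33 hosts in the table (45.5%) and in 4 of its 11 ribosomal protein hosts (36.4%). Of all 27025 genes 28.8% had one. On the opposite strand the shares were 18.2% of hosts, 36.4% of ribosomal protein hosts and 31.6% of all genes. A match is a description of letters and no evidence of a regulated start. Runs that lay outside these 10 bases or were cut by their edge, as in Rpsa and Rpl4, were not marked or counted.

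Length and level were compared with the exponential difference as a description, over RNAs that share arrays. The classes differed in annotated RNA length, with a median of 125 bases in H/ACA and 69.5 in box C/D. Whether length has a part in the difference between the classes was not tested. In H/ACA (n = 20) the Spearman rho with annotated RNA length was 0.52, and in box C/D (n = 32) it was -0.01. With mean level it was 0.14 in H/ACA and 0.46 in box C/D.

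Proteins that bind these RNAs were mostly above 0 without a call. Of 6 H/ACA particle proteins, all 6 were above 0 in both phases, compared with 49.7% of all genes in the chronic and 51.7% in the exponential phase. In the chronic phase, where 0.456% of all genes were called, 1 of the 6 rose. This was Dkc1, the gene of the pseudouridine synthase dyskerin, by 1.17 (SE 0.18, adjusted p = 0.0460 in limma). Its exponential difference was 0.87 (SE 0.24, adjusted p = 0.209). By the methods' t-test and with all probe sets tested, no gene was called in the chronic phase. Nhp2, a core protein of the same particle, differed by 0.62 (SE 0.18, adjusted p = 0.235) in the chronic and 0.49 (SE 0.14, adjusted p = 0.229) in the exponential phase. Of 10 box C/D particle proteins 9 were above 0 in the exponential phase, with a median of 0.30 and no call. The core protein Nop58 differed by 0.94 (SE 0.27, adjusted p = 0.229) and the assembly factor Znhit6 by 0.56 (SE 0.14, adjusted p = 0.167). Of 23 genes for the assembly of spliceosomal RNAs all were above 0 in the exponential phase, with a median of 0.20 and no call. The Sm protein gene Snrpd1 differed by 0.85 (SE 0.21, adjusted p = 0.150) and Strap, which serves the SMN complex, by 0.48 (SE 0.14, adjusted p = 0.229).

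Other short RNAs on the array gave no call. Of 291 microRNA hairpin genes 153 were above 0 in the exponential phase, with a median difference of 0.01, and none was called in any comparison. However, 170 of the 291 lay below the median of all probe sets in every array, where a difference could hardly be seen, and the hairpins were not tested against the small nucleolar RNAs. The hairpins with the smallest p over all leukemias, Mir346 and Mir692-1, were lower by values of -0.63 (SE 0.19, adjusted p = 0.218) and -0.95 (SE 0.30, adjusted p = 0.231) in that comparison. Of 7 other short non-coding RNAs 5 were above 0 in the exponential phase and none was called. Rmrp, the RNA of the ribonuclease MRP complex that also cleaves the ribosomal RNA precursor, had the largest difference, with levels of 4.20, 4.96 and 4.98 in wild type, 6.88, 4.69 and 5.23 in the chronic phase, and 6.92, 5.78, 5.73, 7.33 and 6.77 in the exponential phase. All exponential arrays were above wild type and the chronic phase overlapped it, and the exponential difference was 1.79 (SE 0.38, adjusted p = 0.101). Rpph1, the RNA of ribonuclease P, differed by 0.90 (SE 0.32, adjusted p = 0.372), and Rny3, a Y RNA, by -0.73 (SE 0.32, adjusted p = 0.496).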

How the data were processed

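Per the labels and the study's methods, RNA (mirVana kit) was hybridised to Affymetrix Mouse Gene 1.0 ST arrays, and the authors deposited RMA-normalized log2 values of 34760 probe sets over 11 arrays, from 0.775 to 13.5; per the study's methods, background correction by RMA and quantile normalization were run with the affy package. Detection calls were not used here, so background is not known per probe set. Arrays correlated at 0.929 to 0.969. Probe sets were named from the platform annotation: 21640 had 1 gene symbol, 1321 several and 11799 none, and 29 with several symbols, of which at least 1 fitted the naming rule, were left out. A gene was represented by its probe set of highest mean, which gave 19937 genes.

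Groups were compared with limma 3.58.1 (R 4.3.3; lmFit, eBayes, no covariate, Benjamini-Hochberg over all 19937 genes), each phase with wild type, the phases with each other, and all 8 leukemias with wild type. Called genes had an adjusted p under 0.05 and a fold of at least 1.5. The code was tested on simulated data. Precision is limited by how many arrays there were. The sources used here do not say whether a leukemia array is a single mouse, and the control arrays are pools, so that p-values reflect only how far these arrays spread.

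Members and lists were chosen with earlier results of these data known. Described by name were called RNAs, the 4 with the largest difference over all leukemias in each class, the 3 with the largest difference between phases, the 3 highest and 3 lowest in level, the RNAs of precursor cleavage, and in each protein and RNA list the called genes or else the 2 with the smallest p over all leukemias. Chosen after their values were seen were Snora31, Snora41, Snord35b, Snord38a, Snord42b, Snord15b, Snord82 and Snord73a, the hosts other than Ipo7, Nhp2, Rmrp, Rny3 and Rpph1, Lyz2 and Plbd1. A summed list level is the log2 of the summed linear values. Alternatives were another normalization (cyclic loess, median centring), fits and filters, the t-test of the study's methods, and each array left out.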

Additional observations from a re-analysis of the deposited data

Results flagged for a closer look

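Snord118, the U8 RNA, had 1 array far from the rest of its group: exponential replicate 4 stood at 5.26 (log2 RMA value), while the remaining exponential arrays ran from 3.08 to 3.71, and the gap to the nearest of them was 0.712 of the range of the group. This was 1 of 28 groups examined in this way (groups of 5 arrays), and chance flags about 1 in 20. Exponential replicate 4 was also the array with low CD8 markers, and whether these are related was not tested.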

How the results depend on the processing

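Class medians were recomputed after cyclic loess, without the dimmest 30% of genes and with the probe sets of a gene averaged. They were also recomputed with each array left out, but not for the other alternatives. Their direction against wild type held wherever recomputed, except for the H/ACA median of the chronic phase. That median was -0.0022 without chronic replicate 1 (range with 1 array left out -0.0022 to 1.03). The box C/D median between phases turned to -0.083 without chronic replicate 2 (range -0.083 to 0.45), and the H/ACA median between phases ranged from 0.10 to 1.02. The number of small RNAs called in the exponential phase was 8, and 5 after cyclic loess, 0 in 1 fit over all groups, 0 by the methods' t-test and 0 with all probe sets tested, with 29, 25 and 33 still at an unadjusted p under 0.05 in the t-test, the fit over all groups and the test of all probe sets. It ranged from 0 to 11 with 1 array left out. Over all leukemias the number was 1, and 3 without the dimmest 30% of genes, 2 with array weights, 0 by the methods' t-test, 0 with all probe sets tested and 0 to 5 with 1 array left out. No small RNA was called in the chronic phase or between phases under any alternative. Calls over all genes moved by more than 1.5 times as well: in the exponential phase they were 83, but 4 by the t-test, 28 with all probe sets tested and 16 to 221 with 1 array left out. In the chronic phase they were 91, but 0 by the t-test, 0 with all probe sets, 154 with a trended and robust fit and down to 8 without wild-type replicate 1. Over all leukemias they were 144, but 46 by the t-test, 84 with all probe sets, 50 without wild-type replicate 1 and 273 without exponential replicate 4. Between the phases they were 0, and 2 without chronic replicate 1. The box C/D minus H/ACA gap was 0.55 in wild type, 0.44 in the chronic and 0.20 in the exponential phase with means in place of medians, a choice made after seeing the data, so the chronic gap was then below wild type and the exponential gap above 0. The fit without exponential replicate 4 was likewise singled out after seeing the data.

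No source used here ties equal replicate numbers to a shared mouse, litter or day, so the numbers were not taken to pair the arrays. Over all genes, deviations of same-numbered arrays correlated at 0.18, -0.01 and 0.12 between wild type and chronic, at 0.17, 0.01 and -0.01 between wild type and exponential, and at 0.03, 0.16 and -0.04 between chronic and exponential. Over the 59 alone the last were 0.48, 0.23 and 0.19. With the replicate number as a block, 7 small RNAs were called in the exponential phase, of which 4 were among the 8, and 1 over all leukemias, and the calls over all genes were 139 and 264. Between the phases the block gave 0 calls, with 11 of the 59 at an unadjusted p under 0.05 in place of 2.

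Among single RNAs no called difference changed sign. Depth has no equivalent on arrays, and for RNAs near the median of all probe sets, such as Snord15a, Rnu6 and Rnu7, the signal limits what can be seen.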
